A study of Mus musculus with 2 samples.

Results

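In the adrenal gland of the juvenile mouse, 170 long intergenic noncoding RNA (lincRNA) genes were expressed, where expressed means a level of at least 1 TPM (a level per transcript length, relative to everything quantified in a library) in both libraries. They were taken from 6049 genes that have a transcript typed lincRNA and no transcript typed protein-coding in the annotation M21, after the imprinted RNAs H19, Meg3, Rian, Mirg and Kcnq1ot1 had been left out by name, so that 2.81% of the genes considered are described. The genes were chosen by their TPM in these libraries, and the levels are therefore a description. Total RNA of the gland was sequenced from untreated male B6CASTF1/J hybrid mice at 25 days of age. The study has 1 group with 2 libraries. A strand-keeping kit and 300 ng of RNA with ERCC spike-ins were used for both, and the spike-in profile named in the labels is that for libraries with reduced ribosomal RNA. The labels disagree on whether the libraries come from 2 animals or from the same animal, so differences between them may be technical, and no comparison between conditions is possible. The authors quantified each library in 2 ways, and all levels below are from the first quantification unless the second is named.

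Long noncoding RNAs share little beyond the lack of a long reading frame, and their roles are best known for a few of them. Malat1 and Neat1 stay in the nucleus, where Malat1 gathers in speckles that hold splicing factors and Neat1 builds paraspeckles. Malat1 and the long isoform of Neat1 are released at their 3′ end by RNase P rather than by the usual cleavage and polyadenylation. Host genes of small nucleolar RNAs (snoRNAs) carry these guides of ribosomal RNA modification in their introns and often begin, like ribosomal protein genes, with a run of pyrimidines at the transcript start. Host genes of microRNAs carry hairpins that are cut out of the primary transcript, and in total RNA the unspliced and the spliced forms of such genes are both sequenced.

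The 3′ ends of Malat1 and of the long isoform of Neat1 are shown because RNase P cuts both RNAs there. The longest run of bases that the last 400 bases of both annotated transcripts share (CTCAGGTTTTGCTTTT) and the longest shared run after it (AAAAAGCAAAA), written with T for U, stand in capitals. They were found from these RNAs and then searched on the transcript strand only. The stretches lie at chr19:5795912-5796043 for Malat1 and chr19:5824708-5824776 for Neat1, both on the minus strand (mm10, annotation M21).
Malat1: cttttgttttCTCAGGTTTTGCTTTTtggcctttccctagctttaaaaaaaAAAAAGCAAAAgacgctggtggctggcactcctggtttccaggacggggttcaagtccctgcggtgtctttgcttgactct
Neat1: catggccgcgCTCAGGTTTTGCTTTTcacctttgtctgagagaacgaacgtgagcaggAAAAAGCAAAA
The runs are 25 bases apart in Malat1 and 32 in Neat1. Among 5433 lincRNA genes whose longest transcript has at least 400 bases, the first run was in the last 400 bases of these 2 only, and the second in those of 9. The longest annotated Neat1 transcript ends with the last base of the second run. The Malat1 transcript goes on for 292 bases after it, through the small tRNA-like RNA that is cut off in cells.

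The microRNAs inside members are shown with the seed, bases 2 to 8, in capitals, because several hosts carry microRNAs of the same seed. In the RefSeq table of the build GRCm38.p6, 23 of the 25 microRNA genes inside members were matched. The let-7 seed is carried by 5 matched mature microRNAs in 3 hosts: Lncppara holds let-7b and let-7c, Mir99ahg holds let-7c, and 6720427I07Rik holds let-7a, let-7d and let-7f. A further host, 3110039I08Rik, holds the gene Mirlet7a-2.
let-7a-5p: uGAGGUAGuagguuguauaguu
let-7b-5p: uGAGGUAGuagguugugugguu
let-7c-5p: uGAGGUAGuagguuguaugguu
let-7d-5p: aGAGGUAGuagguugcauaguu
let-7f-5p: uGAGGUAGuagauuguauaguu
The hosts 3110039I08Rik and Mir99ahg, on chromosomes 9 and 16, each carry a microRNA of the miR-99 and miR-100 seed and a copy of miR-125b.
miR-100-5p: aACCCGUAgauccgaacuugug
miR-99a-5p: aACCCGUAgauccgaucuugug
miR-125b-5p: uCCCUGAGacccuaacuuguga
Dleu2 carries miR-15a and miR-16, which share a seed with each other.
miR-15a-5p: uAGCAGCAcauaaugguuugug
miR-16-5p: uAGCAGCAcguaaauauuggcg

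The starts of snoRNA hosts are shown with the pyrimidine run in capitals, because such a run is the known mark of these starts. Each sequence covers 15 bases before and 25 bases from the RefSeq start of the gene (GRCm38.p6): Gas5 at chr1:161035151-161035190 on the plus strand, Snhg8 at chr3:123508312-123508351 on the minus strand, Snhg12 at chr4:132308663-132308702 on the plus strand, 1110038B12Rik at chr17:34952444-34952483 on the minus strand and Snhg1 at chr19:8723472-8723511 on the plus strand.
Gas5: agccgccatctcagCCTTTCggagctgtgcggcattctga
Snhg8: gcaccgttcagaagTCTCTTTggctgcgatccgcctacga
Snhg12: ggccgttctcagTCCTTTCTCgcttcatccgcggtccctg
1110038B12Rik: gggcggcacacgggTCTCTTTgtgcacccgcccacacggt
Snhg1: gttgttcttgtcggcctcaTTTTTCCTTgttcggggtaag
A run of at least 5 C or T letters on the gene's strand that begins within 5 bases of the start was found at 11 of 18 starts of the 15 matched hosts (61.1%). The same search found it at 24.8% of 105 starts of the 88 matched members, among which the hosts are counted. Of all 32851 RefSeq promoters of the same length, 22.0% had it. The letters describe these windows, and whether the runs are used in the gland was not tested.

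Few members held nearly all of the RNA. Members took 2.89% of summed TPM in replicate 1 and 2.34% in replicate 2 (2.61% ± 0.393, SD, n = 2). Gm26917, Malat1, Gm42418 and Rmrp, the 4 members above 1000 TPM, took 2.73% and 2.21% of it, which left 0.140% ± 0.0249 (SD, n = 2) for all other members. The median member stood at 3.11 TPM, with quartiles of 1.72 and 6.54 TPM, against a median of 10.5 TPM over the 11914 nuclear protein-coding genes that passed the same level. A mean of at least 10 TPM was reached by 31 members, and 57 lay between 1 and 2 TPM. By the same level 54.1% of protein-coding genes were expressed, and 68.8% of the lincRNA genes considered had 0 counts in both libraries. At the edge of the rule, Gm16001 (1.08 and 1.00 TPM), 1110019D14Rik (1.07 and 1.01 TPM) and Gm49768 (1.27 and 1.03 TPM) were included. Just outside were 1810044D09Rik (1.29 and 0.99 TPM), 2700038G22Rik (1.90 and 0.99 TPM) and Gm15706 (0.99 and 1.11 TPM). A level of at least 1 TPM in replicate 1 only was seen for 38 genes and in replicate 2 only for 41. In counts the members held 6.77% of 34987784 counts on annotated genes in replicate 1 and 5.25% of 34835107 in replicate 2.

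**Figure D1:**
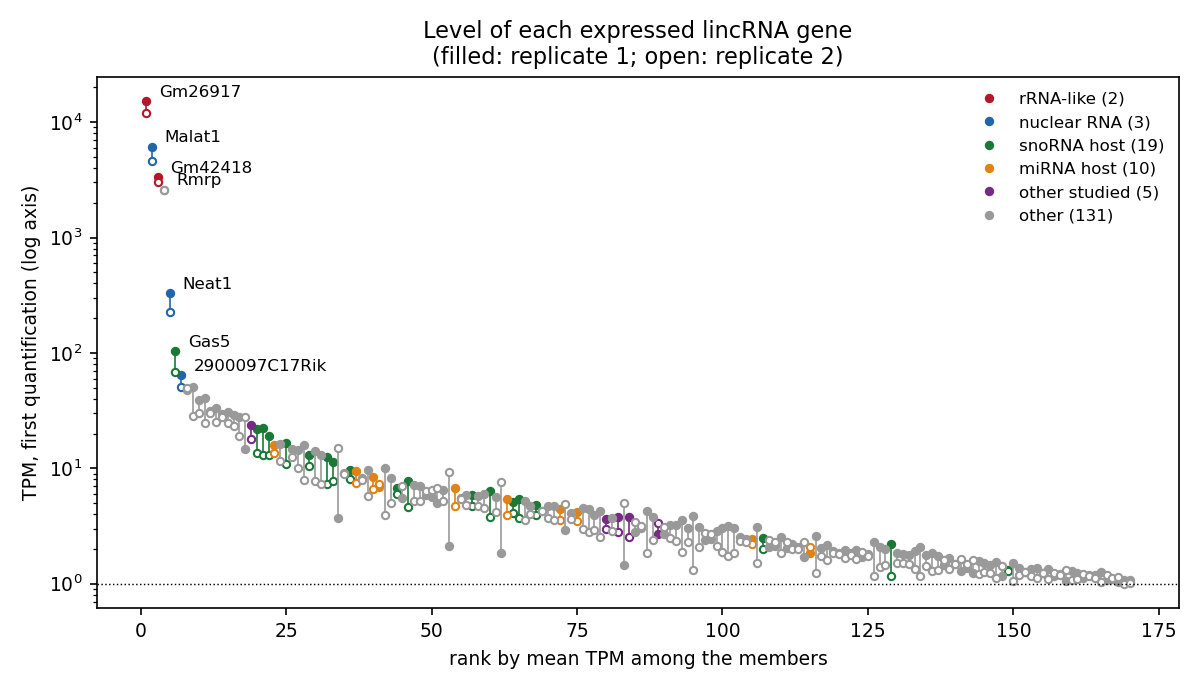
TPM in the first quantification (y axis, log scale) of the 170 members ordered by mean TPM (x axis), with replicate 1 as filled and replicate 2 as open points joined by a line, and colours for the kind of RNA. The 4 genes above 1000 TPM stand clear of Neat1, at 331 and 226 TPM, and the level falls smoothly from Gas5 to the dotted line at 1 TPM.

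The highest member was Gm26917 (chr17:39843013-39846341, plus strand, mm10), with 15244 and 11946 TPM in replicates 1 and 2. Its neighbour Gm42418 (chr17:39846958-39848788, plus strand) stood at 3343 and 3033 TPM, below Gm26917 and Malat1. Both are single blocks of exon on the same strand, in a stretch of chromosome 17 that the annotation fills with entries like ribosomal RNA. RefSeq lists Gm42418 as another name of Rn18s-rs5, a pseudogene related to the 18S ribosomal RNA. On the other strand M21 has CT010467.1, which is typed rRNA. Gm42418 and CT010467.1 overlap on opposite strands of the same DNA, so the 1244 bases they align over are reverse complements by position. The first 60 bases of Gm42418 (chr17:39846958-39847017) and the matching stretch of CT010467.1 are shown.
Gm42418: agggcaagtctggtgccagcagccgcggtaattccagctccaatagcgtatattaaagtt
CT010467.1: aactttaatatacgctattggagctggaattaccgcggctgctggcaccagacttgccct
The counts went almost wholly to the plus-strand entry. Gm42418 held 197789 and 178191 counts, CT010467.1 held 91 and 79, and AY036118, a lincRNA-typed gene at the same place on the minus strand, held 0 in both libraries. Together Gm26917 and Gm42418 made up 1.68% ± 0.255 (SD, n = 2) of summed TPM, more than all other members together. In libraries with ribosomal RNA reduced, reads on such entries may come from the ribosomal RNA left or from the annotated gene, and these cannot be told apart in the tables. Of the other entries listed as like ribosomal RNA, Gm26870 stood at 0.22 and 0.50 TPM, and Gm15564, which is not typed lincRNA, at 0.07 and 0.00 TPM.

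Next in level was an entry of Rmrp, the RNA of the RNase MRP enzyme, which cuts precursors of ribosomal RNA. Both a lincRNA-typed and a ribozyme-typed entry of M21 carry this name. The lincRNA-typed entry (chr4:43492783-43493063, minus strand, 281 bases) contains the whole 271 bases of the ribozyme-typed entry. It stood at 2606 and 2576 TPM, and the ribozyme-typed entry at 4935 and 5122 TPM. The deposited posterior SD of the count was 566 in replicate 1 and 611 in replicate 2 for both entries, so the split of reads between them is uncertain. The lincRNA-typed entry also overlaps an exon of the protein-coding gene Ccdc107 on the other strand, and their starts lie 163 bases apart. Bc1, a small RNA best known from neurons, stood at 3.82 and 2.56 TPM, but on only 9 and 6 counts.

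The 3 members listed as nuclear RNAs were among the highest. Malat1 (chr19:5795690-5802672, minus strand) stood at 6144 and 4571 TPM. Neat1 (chr19:5824708-5845478, minus strand), its neighbour on the chromosome, stood at 331 and 226 TPM, or a mean of 279 ± 74.0 TPM (SD, n = 2). The gene 2900097C17Rik, which is listed with the nuclear RNAs and lies at the Norad locus, whose RNA binds Pumilio proteins in the cytoplasm, stood at 64.4 and 50.4 TPM. All 3 were lower in replicate 2 by the two-tailed exact binomial test on scaled counts, with log2 ratios of -0.21, -0.37 and -0.16, and none differed 2-fold. Over all 19801 genes tested, 18.4% passed as lower at any fold and 20.7% as higher. Of the other genes listed as nuclear RNAs, Tug1 (34.7 and 25.6 TPM) and Firre (30.9 and 22.5 TPM) have no lincRNA-typed transcript or also a protein-coding one and so are not members. Miat stood at 0.26 and 0.11 TPM, and Xist and Rmst at 0.03 TPM or less in both libraries.

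The quantifications divided Malat1, Gm26917, Gas5 and Neat1 differently among annotated isoforms. In the first quantification the full 6983-base isoform of Malat1 took 91.6% and 91.5% of the gene's counts but 43.9% and 43.5% of its TPM. The rest of the TPM went to annotated fragments of 656, 556 and 485 bases. The second quantification gave the full isoform 99.9% of the TPM in both libraries. Neat1 has a long isoform of 20771 bases, which is the one that builds paraspeckles, and a short isoform of 3004 bases. In the first quantification the long isoform took 43.5% and 41.3% of the counts and 9.60% and 8.78% of the TPM. In the second it took 46.3% and 44.1% of the counts and 9.17% and 8.35% of the TPM. The 3004-base isoform took 87.9% and 87.8% of the TPM in the first quantification and 78.1% and 77.3% in the second, and a 1030-base isoform took 1.60% and 2.71% in the first and 12.7% and 14.3% in the second. The isoforms share their 5′ part, so reads from that stretch were divided by each model. Gm26917 has isoforms of 3329 and 869 bases: the first quantification put 26.1% and 26.9% of its TPM on the short isoform, and the second put none there. Gas5, with many annotated isoforms, had 44.0% and 48.3% of its TPM on a 502-base isoform in the first quantification and none there in the second, which gave 33.1% and 36.8% to a 665-base isoform instead.

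**Figure D2:**
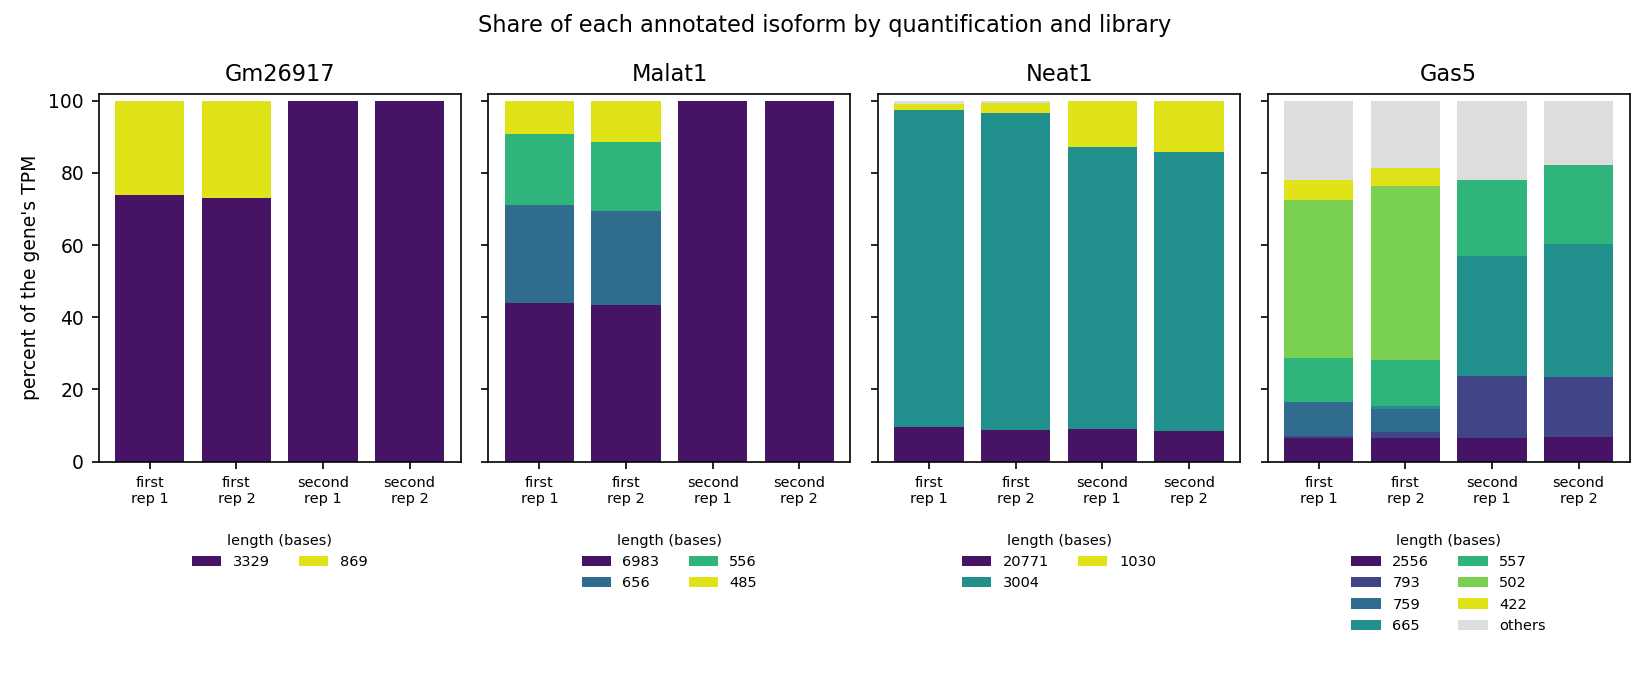
Percent of each gene's TPM (y axis) on each annotated isoform (colours, with lengths in bases) of Gm26917, Malat1, Neat1 and Gas5, in the first and second quantification of replicates 1 and 2. Bars of the same quantification look alike between libraries, and bars of the 2 quantifications differ for each of the 4 genes.

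Host genes of snoRNAs were the largest group with a known role. An annotated snoRNA lay within the body and on the strand of 19 members (11.2%), against 0.459% of the 5879 lincRNA genes that were not expressed. For Snhg10 the RNA inside is a small Cajal body RNA, and for AI506816 and 2900076A07Rik the snoRNA-typed entry carries a microRNA's name. Gas5, which holds 10 entries typed snoRNA, was the highest, with 103.6 and 68.0 TPM. Snhg5 stood at 21.9 and 13.7 TPM, Snhg1 at 22.4 and 13.1 TPM, and Snhg20 at 18.99 and 13.04 TPM. The other hosts ranged from 1.30 to 13.7 TPM in the mean of the libraries. Among them were Snhg6, Snhg8, Snhg10, Snhg12, Snhg17, Snhg18, Epb41l4aos and Dancr. Of the 21 genes listed as hosts by name, 11 were members, and 7 were not typed lincRNA or were also typed protein-coding, among them Zfas1 at 18.7 and 12.3 TPM and Snhg3 at 13.2 and 12.5 TPM. The other 3 symbols were not found in the tables.

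Every one of the 19 hosts had the higher TPM in replicate 1. Across members this was so for 132 of 170 (77.6%) and across expressed protein-coding genes for 78.0%, so this direction is common to most genes. On counts scaled by the TMM method, which removes the shift of the typical gene, 16 of 19 hosts were lower in replicate 2, with a median log2 ratio of -0.26, against -0.06 over all members and -0.02 over all expressed genes. Scaled by spike-in totals the median of the hosts was -0.61 and that of all expressed genes -0.38. At any fold, 5 hosts passed the exact binomial test as lower in replicate 2 and 0 as higher, where 18.4% of all 19801 genes tested passed as lower and 20.7% as higher. The 5 were Gas5, Snhg1, Snhg5, Snhg12 and AC121821.1, with log2 ratios of -0.38, -0.57, -0.48, -0.48 and -0.49. None of the 19 differed 2-fold with the test passed.

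**Figure D3:**
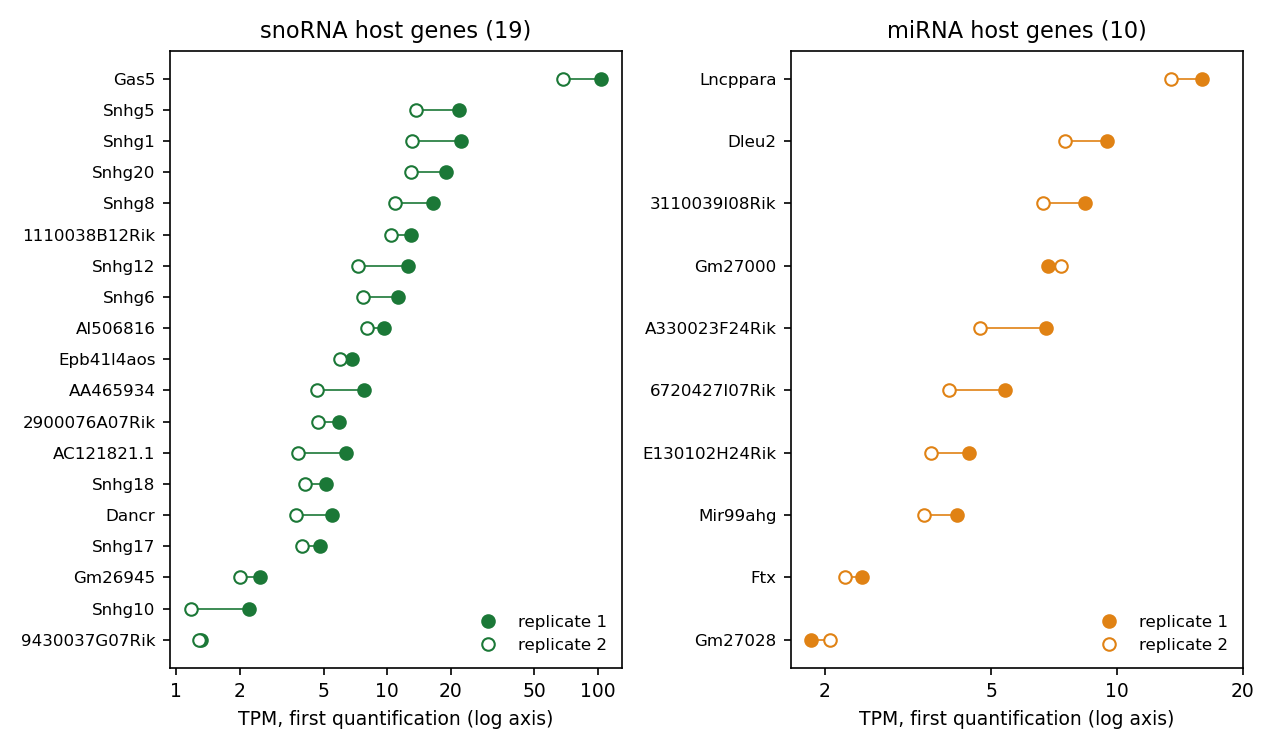
TPM in the first quantification (x axis, log scale) of the 19 snoRNA hosts (left) and the 10 microRNA hosts (right), with replicate 1 filled and replicate 2 open. The filled point lies to the right in every snoRNA host and in 8 of the 10 microRNA hosts, the exceptions being Gm27000 and Gm27028.

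Host genes of microRNAs were fewer and lower. An annotated microRNA lay within 14 members (8.24%), against 1.04% of lincRNA genes not expressed, and 10 of these held no snoRNA. Lncppara, the host of let-7b and let-7c, was the highest, with 16 and 13.5 TPM. Dleu2, the host of miR-15a and miR-16, stood at 9.48 and 7.50 TPM. The let-7 and miR-100 host 3110039I08Rik stood at 8.39 and 6.66 TPM, and its counterpart Mir99ahg at 4.15 and 3.46 TPM. A330023F24Rik, which holds miR-29b and miR-29c, stood at 6.75 and 4.69 TPM, and 6720427I07Rik, which holds let-7a, let-7d and let-7f, at 5.40 and 3.96 TPM. These 2 hosts were the only ones of the 10 to pass the exact binomial test at any fold, both as lower in replicate 2, with log2 ratios of -0.24 and -0.22, and 18.4% of all genes tested passed as lower. E130102H24Rik, the host of miR-101a, Ftx, a gene of the X-inactivation region, and Gm27028, around miR-30c, ranged from 1.96 to 4.00 TPM in the mean. Levels of a host measure the primary and spliced host RNA and not the mature microRNA, which these libraries do not measure. Gm27000 on chromosome X, at 6.85 and 7.36 TPM, is identical to a Meg3 transcript at 841 of its 842 bases, and the posterior SD of its count averaged 26.2% of the count, the highest of all members. Meg3 stood at 423 and 285 TPM, so the level of Gm27000 is uncertain.

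The 5 other studied RNAs that hold no small RNA had a median of 3.28 TPM, close to that of all members. Lncpint, induced by p53, stood at 23.93 and 18.01 TPM. Pvt1, the neighbour of Myc, stood at 3.67 and 2.97 TPM, Carmn, an RNA of smooth muscle cells, at 3.76 and 2.80 TPM, and Jpx, an activator of Xist, at 2.69 and 3.34 TPM. None of them, nor Bc1, passed the exact binomial test at any fold. Of 27 genes so listed, 7 were members, counting Dancr and Ftx, and 6 typed lincRNA were below the level, among them Hotair, which was listed at 0 in both libraries, Fendrr at 0.03 and 0.30 TPM and Crnde at 0.75 and 0.55 TPM. Bvht, at 1.32 and 0.90 TPM, and Lockd, at 0.92 and 1.16 TPM, each passed the level in 1 library.

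Other high members have no role in these lists. The next below 2900097C17Rik were 1810058I24Rik (47.33 and 50.01 TPM), Gm36723 (50.2 and 28.6 TPM), AI480526 (39.2 and 30.2 TPM), Gm49708 (41.1 and 24.7 TPM), Gm10076 (31.6 and 29.9 TPM), Gm53 (33.1 and 25.1 TPM), Tmem250-ps (29.8 and 27.8 TPM) and 1700020I14Rik (30.9 and 24.7 TPM). Gm36723, on chromosome 12, had the widest gap of these between the libraries, with a log2 ratio of -0.65 on scaled counts. Gm10076 is 99.5% identical over 99.7% of its 384 bases to the ribosomal protein gene Rpl41, which stood at 849 and 724 TPM, and Tmem250-ps is a pseudogene by name. Gm49708 has near-identical sequence in 7 other genes, which together match 98.3% of its longest transcript. The posterior SD of its count averaged 1.86% of the count.

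The 2 libraries agreed closely for members. The log2 TPM of the 170 members had a Pearson r of 0.973 and a Spearman rho of 0.917 between the libraries, across genes that share library, depth and tissue. The rule used these same TPM values and left out genes that reached 1 TPM in replicate 1 only (38) or replicate 2 only (41). The correlations are therefore a description and no independent measure of agreement. Only 7 members differed at least 2-fold with a Benjamini-Hochberg adjusted p of at most 0.05 in the exact binomial test, 5 higher and 2 lower in replicate 2. Over all 19801 genes tested, 8.56% were called higher and 2.29% lower, and over expressed protein-coding genes 4.79% and 0.546%, against 2.94% and 1.18% of members. The expressed protein-coding genes were chosen by the same level as members, and the 19801 genes were not. The test compares these libraries, not conditions, and covers counting error only.

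The 5 members called higher in replicate 2 had log2 ratios between 1.61 and 2.37. Gm43305 (chr14:54292443-54297456, minus strand) stood at 14.6 and 27.6 TPM in replicates 1 and 2, with a log2 ratio of 1.61 on counts (95% counting interval 1.52 to 1.71). Gm42031 (chr8:85125872-85132289, minus strand) stood at 2.11 and 9.34 TPM, with a log2 ratio of 2.37 (2.09 to 2.66). AC158975.2 stood at 3.68 and 15.1 TPM, with a log2 ratio of 2.27 (2.06 to 2.49). Their sequences are related. Gm42031 and Gm43305 are 98.7% identical over 748 bases of their longest alignment, and AC158975.2 is 99.7% identical over 1854 bases to Gm42427, a gene of chromosome 5 that was also called, at 1.35 and 4.64 TPM. Gm42031 in turn aligned to Gm42427 over 514 bases at 95.5% identity. The 80-base stretch of the longest alignment with the most differences shows how few bases separate Gm42031 from Gm43305, with differing bases in capitals.
Gm42031: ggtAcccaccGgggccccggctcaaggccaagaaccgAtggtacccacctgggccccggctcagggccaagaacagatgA
Gm43305: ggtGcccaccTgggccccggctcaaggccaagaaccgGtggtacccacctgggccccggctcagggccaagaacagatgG
The calls of Gm42031, Gm43305 and AC158975.2 may therefore share reads. AW112010 and 2310001H17Rik have no such copy: AW112010, an RNA known from inflamed macrophages, stood at 1.85 and 7.57 TPM (log2 ratio 2.32, interval 1.77 to 2.91), and 2310001H17Rik, on chromosome 6 with the lectin gene Clec2d as its nearest opposite-strand neighbour, at 1.44 and 4.99 TPM (log2 ratio 2.08, interval 1.62 to 2.57). The 2 members called lower were Gm39090, at 3.87 and 1.32 TPM (log2 ratio -1.36, interval -1.96 to -0.79), and Gm12840, at 9.98 and 3.91 TPM (log2 ratio -1.12, interval -1.54 to -0.72).

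Markers of other tissues moved with the libraries. All 8 liver markers were called higher in replicate 2, with a summed level of 30.0 and 22290 TPM in replicates 1 and 2, and all 8 skeletal muscle markers lower, with 1328 and 1.92 TPM, and no marker of either list was at 0 in either library. The 7 adrenal cortex markers summed to 12342 and 6802 TPM, the 6 medulla markers to 1602 and 1088 TPM, and the 4 macrophage markers to 79.9 and 81.5 TPM, with no gene of these 3 lists called. White adipocyte markers summed to 1781 and 1328 TPM and brown adipocyte markers to 1169 and 802 TPM. In each of these adipocyte lists 1 gene was called higher in replicate 2. No erythroid or endothelial marker was called. The part of other tissues in the levels of the 7 members was not tested. In bulk tissue fewer cells of a type and less RNA per cell cannot be told apart.

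**Figure D4:**
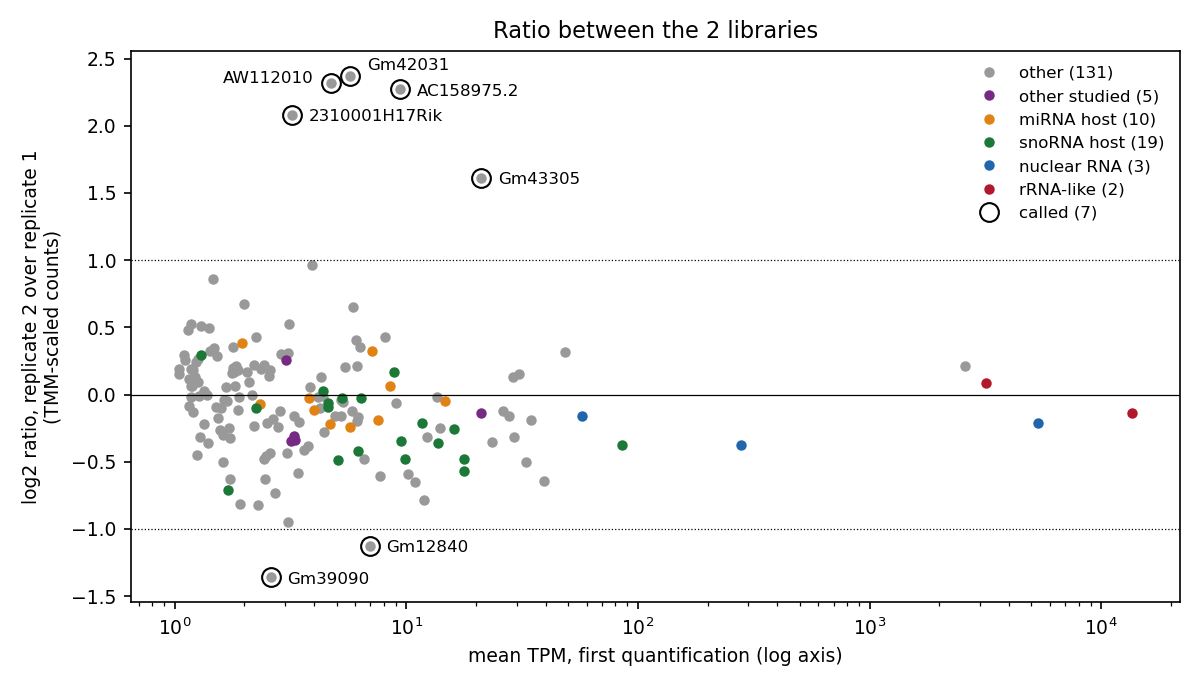
Log2 ratio of TMM-scaled counts, replicate 2 over replicate 1 (y axis), against mean TPM (x axis, log scale) for the 170 members, coloured by kind of RNA, with the 7 called members ringed and named and dotted lines at a 2-fold difference. All named kinds of RNA lie within 2-fold, and the 7 called members belong to the genes with no listed role.

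The 2 quantifications of the same reads agreed for most members. TPM in the second was 1.68-fold that in the first for the median of 11909 nuclear protein-coding genes and 1.78-fold for the median member. Relative to the protein-coding median, 140 members lay within 2-fold, 15 were higher in the second and 15 lower, so that 17.6% lay beyond 2-fold. Of protein-coding genes 1.29% did, 0.579% as higher and 0.714% as lower. Among genes with a mean of at most 6.54 TPM, 17 of 127 members (13.4%) and 56 of 4040 protein-coding genes (1.39%) lay beyond. Over the 164 members above 0 in the second, the log2 TPM of the quantifications had a Pearson r of 0.918 and a Spearman rho of 0.911 across genes, and these are the same reads. The 2 quantifications named the same leading isoform for 75 of 110 members with several isoforms.

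Members with short transcripts or with near-identical copies elsewhere made up much of the disagreement, and 14 of the 30 were neither. A member is called copied here where at least 50% of its longest transcript aligned to transcripts of other loci at 95% identity or more over at least 100 bases. Overlapping genes were not counted as copies, so members not called copied can still share sequence. AI506816 (48.0% aligned) and Gm43305 (28.6%), both beyond 2-fold, fall under the cut. Of 23 copied members 13 lay beyond 2-fold, and of 147 others 17 did. Of 15 members of at most 500 bases 9 lay beyond, and of 155 longer ones 21 did. The 6 members that are both copied and at most 500 bases long all lay beyond. Counts that may be shared in this way are uncertain, and for 115 members the deposited posterior SD was 0 in both libraries.

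**Figure D5:**
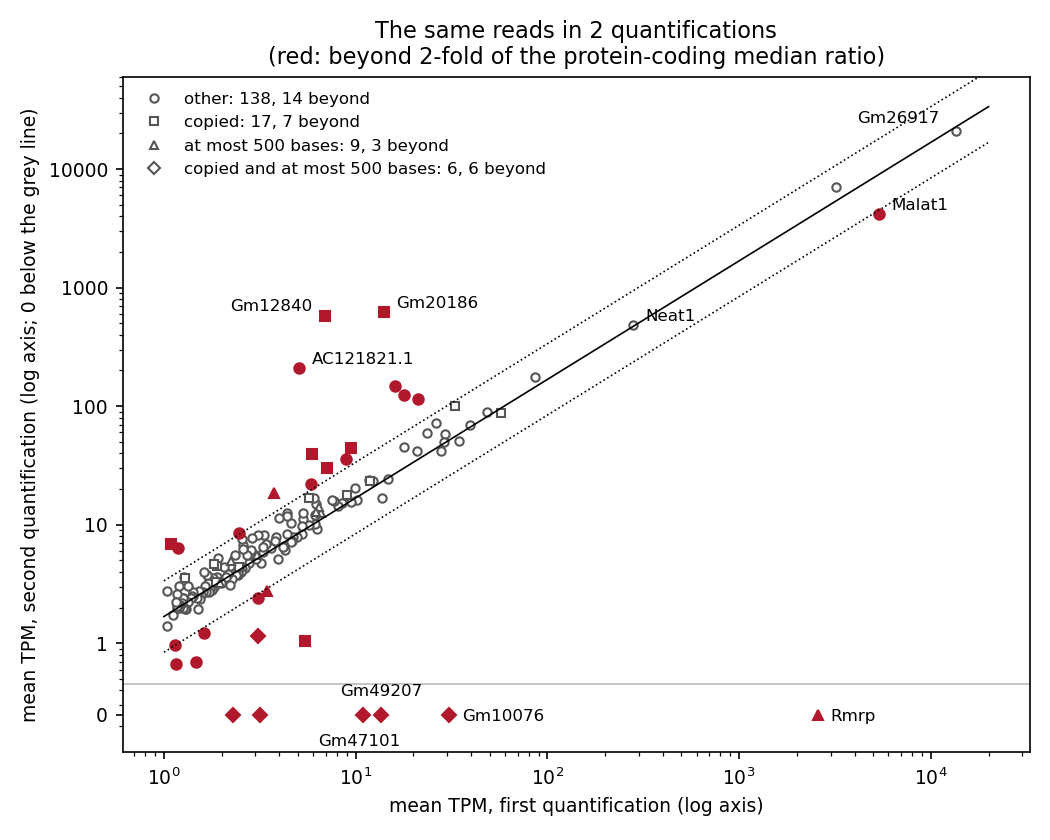
Mean TPM in the second quantification (y axis, log scale, with 0 below the grey line) against the first (x axis, log scale) for the 170 members. The solid line is the protein-coding median ratio of 1.68, the dotted lines are 2-fold from it, marker shapes give copied and short members, and the 30 members beyond 2-fold are red, with 6 at 0 in the second quantification.

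Of the 15 members of at most 500 bases, 8 were lower beyond 2-fold in the second quantification and 1, Gm8066 of 485 bases, was higher, while the others, among them Epb41l4aos and AA465934, lay within 2-fold. Listed at 0 there in both libraries were Rmrp, Gm10076, Gm49207, Gm47101, Bc1 and Gm37350, with lengths from 168 to 384 bases, and the 1 other member as short, Gm43020 of 372 bases, lay within 2-fold. Rmrp thus went from 2606 and 2576 TPM to 0 in both libraries. The ribozyme-typed entry of Rmrp, at 4935 and 5122 TPM in the first quantification, was also at 0 in both libraries of the second. Gm10076, the copy of Rpl41, went from 31.6 and 29.9 TPM to 0, and Gm49207, 99.6% identical to the chaperone gene Ahsa1 over most of its length, from 14.7 and 12.5 TPM to 0. Gm47101, 99.3% identical to the member Gm49708, went from 14.1 and 7.70 TPM to 0. Among longer members, Gm13166, of 940 bases with a copy in Gm13236, went from 5.49 and 5.43 TPM to 1.86 and 0.24 TPM. The 6 members listed at 0 had 0 estimated counts as well as 0 TPM in the second quantification. The second quantification subtracted more bases from each transcript to reach its effective length than the first, and the part of this in the values of 0 was not tested. Malat1 was the highest member beyond 2-fold among long transcripts, with TPM lower by 1.12 on the log2 scale relative to protein-coding genes, at 4874 and 3448 TPM in the second. Its counts were not lower, with 692894 and 506639 in the first quantification and 812306 and 588642 in the second.

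The largest gains in the second quantification were in a pair of near-identical genes and in snoRNA hosts. Gm12840 on chromosome 4 went from 9.98 and 3.91 TPM to 812 and 348 TPM, and Gm20186 on chromosome 6 from 16.4 and 11.7 TPM to 873 and 362 TPM. Their longest transcripts are 97.0% identical over 463 bases, with 12 mismatches. An 80-base stretch of that alignment shows 3 of them in capitals.
Gm12840: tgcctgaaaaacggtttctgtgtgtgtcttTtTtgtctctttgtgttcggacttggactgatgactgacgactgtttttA
Gm20186: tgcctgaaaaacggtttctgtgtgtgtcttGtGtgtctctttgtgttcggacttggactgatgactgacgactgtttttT
The mean ratio of the quantifications was thus 83.6-fold for Gm12840 and 44.0-fold for Gm20186. Gm12840 also aligned over its whole length to the other strand of Gm26809, at 97.5% identity, which stood at 0.05 TPM in both libraries. For Gm12840 the log2 ratio between the libraries was -1.12 in the first quantification and -0.95 in the second, which is under 2-fold.

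In the 3 snoRNA hosts with the largest gains, the second quantification placed most of the gene's TPM on 1 isoform that the first gave little. AC121821.1, around Snora74a, went from 6.41 and 3.78 TPM to 227 and 190 TPM, and 95.2% and 95.8% of that was on a 708-base isoform to which the first gave 15.2% and 6.76%. Snhg20 went from 18.99 and 13.04 TPM to 164 and 135 TPM, with 76.6% and 79.8% on a 459-base isoform to which the first gave 0.34% and 0.00%. Snhg1 went from 22.4 and 13.1 TPM to 147 and 99.2 TPM, with 70.1% and 78.7% on a 495-base isoform listed at 0 in the first. Other hosts moved less: Gas5 went from 103.6 and 68.0 TPM to 214 and 138 TPM, within 2-fold of the protein-coding median, and the median host stood 0.37 on the log2 scale above that median. The cause of the isoform shift was not tested.

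Members that are copies of each other can also agree between quantifications. Gm7292 on chromosome 6 aligned over its whole 2527 bases to 2900097C17Rik of chromosome 2 at 99.2% identity, with 9 mismatches. The 80-base stretch shown holds 2 of them.
Gm7292: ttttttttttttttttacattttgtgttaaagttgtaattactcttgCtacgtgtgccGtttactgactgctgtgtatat
2900097C17Rik: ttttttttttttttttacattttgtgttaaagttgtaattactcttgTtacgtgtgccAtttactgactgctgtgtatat
Gm7292 stood at 9.11 and 8.89 TPM in the first quantification and 19.2 and 16.5 TPM in the second, and 2900097C17Rik at 64.4 and 50.4 TPM and 101 and 74.3 TPM, both within 2-fold of the protein-coding median. The posterior SD of the count averaged 5.30% of the count for Gm7292 and 0.288% for 2900097C17Rik. Among members with a mean of at least 5 TPM, Gm27000, Gm49207 (15.2%), Gm13166 (5.66%), Gm10076 (5.47%) and Gm7292 had the least certain counts by this measure, and each aligned over at least 50% of its length to another locus.

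Annotated structure and place, which the rule did not use, were compared with those of the lincRNA genes that were not expressed. The longest transcripts of members had a median of 1806 bases against 994 bases. With exons merged over all isoforms, 24.1% of members formed a single block, among them Gm26917, Malat1, Neat1, Snhg1 and Snhg8, against 5.80% of the others. A single block does not mean an unspliced gene. Snhg1 and Snhg8 have isoforms typed as retained intron, and their longest transcripts (2728 and 776 bases) are shorter than their spans (2969 and 853 bases). A start within 1000 bases of the start of a protein-coding gene on the other strand was found for 34 members (20%), against 5.48%. Among these pairs were Gas5 with Zbtb37 at 427 bases, Snhg1 with Slc3a2 at 106 bases, AI480526 with Setd1b at 527 bases, Snhg18 with Sema5a at 148 bases and Gm20186 with Lsm8 at 372 bases. Exons of a protein-coding gene on the same strand overlapped 9 members (5.29%), against 0.612%, and exons on the other strand 12 (7.06%), against 4.44%. Reads of the same-strand overlaps may belong to the partner. Whether counting used the strand is not given in the sources used here and was not tested. Reads of the other-strand overlaps may therefore also belong to the partner. Where Gm42418 and CT010467.1 overlap on opposite strands, Gm42418 held 197789 and 178191 counts and CT010467.1 held 91 and 79. The posterior SD of the count was 0 in both libraries for Gm42418, and 0.47 and 0.74 for CT010467.1. For 1810026B05Rik and Chd2, which overlap on the same strand, it was 11.73 and 10.34 for each gene. The shares in this paragraph are descriptions of the annotation, with no test.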

How the data were processed

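Total RNA-seq of 2 libraries of 1 group was analysed as the authors deposited it. The first quantification gives expected counts, TPM, a posterior SD and the percent of a gene's TPM on each isoform, per the file headers. The second lists transcripts with estimated counts and TPM, as deposited, summed here over each gene. The deposited annotation text names mm10 and GENCODE M21. Not given in the sources used here were the quantifying tools and any use of strand in counting. Total expected counts were 35283841 and 35156690.

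Members are genes with a lincRNA-typed and no protein-coding transcript reaching 1 TPM in each library. Members and lists were chosen with earlier results of these data known. The named genes are the listed RNAs by role, the highest members, those called between the libraries, and those with the largest difference between the quantifications. Expected counts were rounded and compared between the libraries by a two-sided exact binomial test, with library sizes scaled by TMM (edgeR 4.0.16), Benjamini-Hochberg adjustment over 19801 genes with at least 10 counts, and a call at an adjusted p of at most 0.05 and 2-fold. The test covers counting error only. It was tried on simulated counts that held counting error only and used no TMM scaling, so that trial does not cover differences in composition between the libraries. Ratios of the quantifications are log2 with 0.1 TPM added, centred on the median protein-coding gene. Copies were found with BLAST 2.17.0. Promoters and microRNAs are from RefSeq GRCm38.p6 and transcripts from M21. Alternatives were other scalings, DESeq2 1.42.0 size factors, no count filter, other level thresholds, other pseudocounts and each library left out.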

Additional observations from a re-analysis of the deposited data

How the results depend on the processing

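The number of expressed lincRNA genes, 170, was 272 at a TPM of at least 0.5, 103 at 2 and 387 by the second quantification, and 208 to 211 with 1 library left out. Their share of TPM, 2.61%, was 3.63% in the second quantification, 7.14% relative to protein-coding genes and members alone, 1.25% without Gm26917 and 2.08% without Malat1, and 2.34% to 2.89% with 1 library left out. The 7 members called between the libraries (5 higher, 2 lower in replicate 2) were 10 when scaled by total counts (5 and 5), 14 when scaled by the spike-ins (5 and 9), 47 at any fold (15 and 32), 7 with DESeq2 size factors and 8 in the second quantification (7 and 1). Gm12840 had a log2 ratio of -0.95 in the second quantification, under 2-fold. The centred median log2 ratio of the quantifications, 0.08, was 0.0099 on counts, 0.83 with no centring, -0.01 (-0.0126) with a pseudocount of 1 and 0.23 for members of at least 5 TPM. The cause of these shifts was not tested. No paired analysis was possible because the study has 1 group. Calls on few counts are limited by depth: Bc1 rests on 9 and 6 counts.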

Other observations

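By the second quantification 387 lincRNA genes reached 1 TPM in both libraries. Of these 158 were members and 229 were not, and 12 members were below that level there.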
